A study of Mus musculus with 14 samples.

Results

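Sp110, Zfp352, Spz1, Ubtfl1, Usp17lb, Eif1a and Gm8300 are 7 genes whose transcription begins when the mouse genome is switched on in the two-cell embryo. They were followed in RNA from 14 single embryos made by somatic cell nuclear transfer (SCNT), out of 20642 genes in the deposited tables. The genes were chosen by name for their role and by their RPKM values over the treatments of these same embryos, so their differences between treatments are given as descriptions, and the p-values beside them are not independent evidence. Sp110 has 2 RefSeq entries in the tables, which were summed and are also shown one by one. The other 6 genes have 1 entry each.

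All embryos were reconstructed from B6D2F1 mouse material, with cumulus cells as nuclear donors and enucleated oocytes of superovulated young adult females as recipients, and were collected at the two-cell stage. TSA (trichostatin A, an inhibitor of histone deacetylases) was given at 50 nM, and VC (vitamin C, a cofactor of iron-dependent dioxygenases such as histone demethylases) at 10 µg/ml. There were 3 Control embryos without either agent, 1 with VC during the first 8 h [VC(0-8 h)], 2 with VC from 8 to 15 h [VC(8-15 h)], 3 with TSA(0-8 h), 2 with both agents over the first 8 h (TSA+early VC) and 3 given TSA(0-8 h) followed by VC at 8 to 15 h (TSA+late VC). The sample labels give the collection at 28 h after nuclear transfer. No embryo made by fertilization is among them, so the level of a gene in normal development is not given by these data.

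In mouse, maternal RNA is degraded during the first cell cycles and the major wave of embryonic transcription takes place at the two-cell stage. Genes of this wave include many copies of recently expanded families, and several start within or near repeated elements. In cloned embryos, the donor nucleus has to begin this program without having passed through a germline.

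The genes lie on different chromosomes. In mm9 (NCBIM37, GENCODE annotation), Sp110 spans chr1:87473474-87495392 on the minus strand with 12 exons, and Zfp352 spans chr4:89885511-89892393 on the plus strand with 2 exons. Spz1, with 1 exon, spans chr13:93344586-93346187 on the minus strand, and Ubtfl1, with 3 exons, spans chr9:18208862-18215946 on the plus strand. Usp17lb (Dub1a in that annotation) spans chr7:111988826-111991018 on the minus strand. Gm8300 spans chr12:88855266-88859203 on the plus strand.

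RefSeq promoter windows (GRCm38.p6, 250 bases before and 50 after an annotated start) were at hand for 5 of the 7 genes. The upstream parts of the windows of Zfp352 (chr4:90218570-90218819, plus strand) and of the first Sp110 start (chr1:85603892-85604141, minus strand) are shown because they are the members' only windows that share a 2-part word close to the start. Capitals mark TAATCC on either strand, and the 2-part word CTGCTGGAG followed after 3 to 7 bases by TATAAGG.
Zfp352: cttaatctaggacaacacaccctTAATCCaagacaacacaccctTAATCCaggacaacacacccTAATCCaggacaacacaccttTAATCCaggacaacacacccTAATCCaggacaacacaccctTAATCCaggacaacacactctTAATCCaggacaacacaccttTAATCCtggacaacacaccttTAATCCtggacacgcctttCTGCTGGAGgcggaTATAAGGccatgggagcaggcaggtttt
Sp110: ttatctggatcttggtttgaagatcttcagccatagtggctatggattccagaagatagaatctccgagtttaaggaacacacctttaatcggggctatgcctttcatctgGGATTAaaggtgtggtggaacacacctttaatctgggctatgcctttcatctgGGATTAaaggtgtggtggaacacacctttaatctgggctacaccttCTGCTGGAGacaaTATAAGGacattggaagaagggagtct
Both words were picked after these windows had been read. TAATCC or its reverse complement GGATTA, the type of site that bicoid-class homeodomain proteins bind, occurred 9 times in the Zfp352 window and 2 times in that of the first Sp110 start, with 1 copy in the window of another Sp110 start. At least 1 copy was in 7.062% of all 32851 promoter windows of this length. The Zfp352 window had the highest number of copies of all windows, and the next highest number was 4. In Zfp352 the copies recur every 20 or 21 bases, as units of a tandem repeat. The 2-part word was in 26 windows of 25 genes (0.0791%), counted on both strands. The 250 bases of Zfp352 and Sp110 also aligned over 68 columns around this word, of which 55 were identical. The windows of Usp17lb, Ubtfl1 and Spz1 held neither word.

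**Figure D1:**
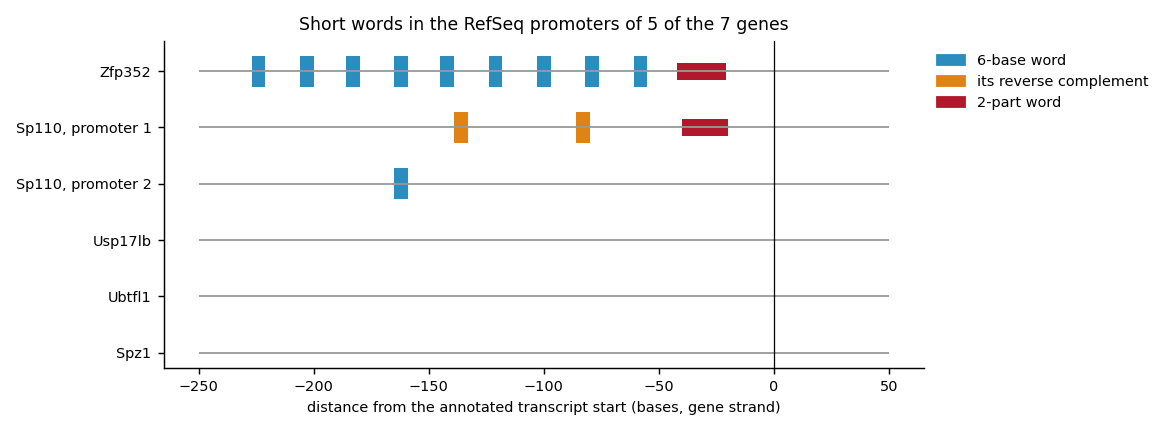
Positions of the words in the RefSeq promoter windows of 5 of the 7 genes, in bases from the annotated start on the gene's strand. Blue and orange bars are TAATCC and its reverse complement and red bars the 2-part word, which begins at -42 in Zfp352 and at -40 in Sp110.

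Of the 25 genes with the 2-part word, 15 have entries in the tables. Without Sp110 and Zfp352, from which the word was taken, 8 of 13 (61.5%) reached 1 RPKM (reads divided by transcript length in kilobases and by the library's counted reads) in at least 6 of the 14 embryos. The share was 25.2% of the 16211 genes in the tables that have a promoter window. Among them, Pramel17 was at 2.05 to 429.2 RPKM with a median of 77.9 RPKM, and Gm12789 at 0.362 to 494.3 RPKM with a median of 85.4 RPKM. These 2 genes were named after their values were seen. Some of the 25 are predicted genes in clusters, whose reads may be shared.

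Usp17lb and Gm8300 belong to clusters of close copies, which limits what short reads can assign to them. Usp17lb, a deubiquitinating enzyme of the Usp17-like family, has 90.76% to 91.4% of its coding bases in common with 4 neighbours on chromosome 7. The first 60 coding bases of the 5 genes are given below from the mm9 transcripts, with capitals where a neighbour differs from Usp17lb.
Usp17lb: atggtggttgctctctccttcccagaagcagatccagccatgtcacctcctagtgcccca
Usp17la: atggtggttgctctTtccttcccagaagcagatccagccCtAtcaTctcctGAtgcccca
Usp17lc: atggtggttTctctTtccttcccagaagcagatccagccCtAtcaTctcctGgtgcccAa
Usp17ld: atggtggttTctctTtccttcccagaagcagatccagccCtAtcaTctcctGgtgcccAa
Usp17le: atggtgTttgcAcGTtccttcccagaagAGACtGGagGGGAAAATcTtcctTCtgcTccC
Gm8300 encodes a protein of the eIF1A type, the initiation factor that helps ribosomes scan to the start codon. Its 435 coding bases were identical to those of Eif1a at 413 positions (94.94%) and to those of Gm5662 and Gm2016, copies in the same cluster on chromosome 12, at 427 positions (98.16%). Over the first 60 coding bases Gm8300, Gm4027, BB287469, Gm2016 and Gm5662 do not differ.
Gm8300: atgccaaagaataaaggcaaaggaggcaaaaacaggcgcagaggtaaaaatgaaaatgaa
Reads of the series were 50 bases long. Of all 50-base windows of the transcripts, those with an exact match elsewhere in mm9 made up 56.25% for Sp110, 39.04% for Gm8300, 24.23% for Usp17lb, 10.06% for Zfp352, 5.29% for Ubtfl1, 4.806% for Eif1a and 0 of 1553 for Spz1. In Zfp352, most of these windows (193 of 2227) were in the related gene Zfp353. How the authors' mapping and counting treated reads with several matches is not given in the sources used here, so values of the first 3 genes are uncertain to that extent.

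Between 3021540 and 13589389 reads were counted per embryo (median 7318366), recovered from the steps between RPKM values. For a transcript length of 1 kb, a count of 3 reads corresponded to 0.221 to 0.993 RPKM, depending on the library. Copies made by amplification are not independent molecules, and the floor describes counting error alone. Between 3322 and 6728 entries reached 1 RPKM. Of 15 markers of cumulus and granulosa cells, none reached 1 RPKM in 12 of the embryos and 1 did in the other two, with Fshr, Lhcgr, Cyp11a1 and Star among the markers examined, and their summed level was at most 1.88 RPKM. Of 15 oocyte genes, between 7 and 12 reached 1 RPKM in every embryo, with summed levels of 575 to 2400 RPKM. Of 10 two-cell markers of the Zscan4, Tcstv and Tdpoz families, 2 to 6 reached 1 RPKM in Control embryos and 5 to 8 in TSA+late VC embryos. TSA+late VC embryos also had more genes in general at this level than Control embryos. The number was 3 to 5 with TSA(0-8 h), 4 to 5 with TSA+early VC, 5 to 6 with VC(8-15 h) and 4 with VC(0-8 h). Zscan4b was listed at 0 throughout, and the summed level was highest in VC(8-15 h) replicate 2, at 1385 RPKM. RPKM is a share of an embryo's reads, so more RNA of a gene and less RNA of others cannot be told apart.

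**Figure D2:**
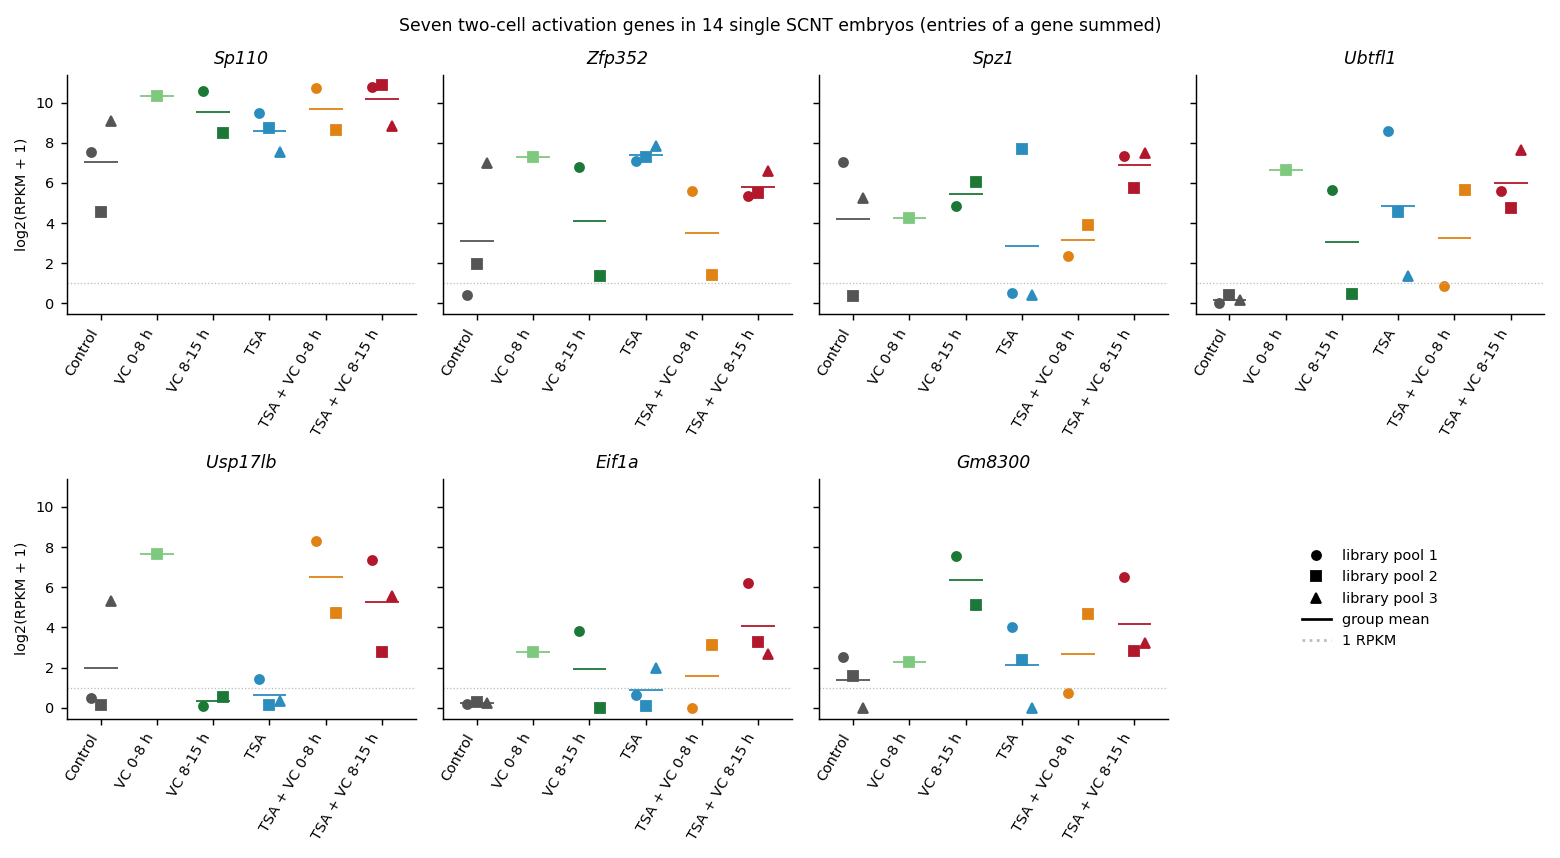
log2(RPKM + 1) of the 7 genes in 14 single embryos, by treatment, with entries of a gene summed. Each point is an embryo, and its shape is its pool of libraries, as read from the library identifier. Horizontal bars are group means and the dotted line is 1 RPKM. All 7 genes lie at or above the line in the 3 TSA+late VC embryos.

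Every one of the 7 genes was at 1 RPKM or more in all 3 TSA+late VC embryos, as the plot of levels by treatment shows. This was also so in the VC(0-8 h) embryo and in TSA+early VC replicate 2. Control embryos 1, 2 and 3 had 3, 3 and 4 of the 7 genes at this level, TSA(0-8 h) embryos 5, 5 and 4, VC(8-15 h) embryos 6 and 4, and TSA+early VC replicate 1 had 4. Among the 5032 genes at 1 RPKM in at least 6 embryos, 56.3% reached 1 RPKM in all 3 TSA+late VC embryos and 38.5% in all 3 Control embryos. The embryos with all 7 genes had between 78.4% and 89.1% of these 5032 genes at 1 RPKM, against 53.5% to 84.9% in the others, and the part of this breadth in the members' levels was not tested.

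Sp110, a relative of the nuclear body protein Sp100 known for its role in resistance to intracellular bacteria, had the highest level per length, with a median of 492.0 RPKM over the 14 embryos. It was at 186.6, 22.2 and 535.8 RPKM in Control embryos 1 to 3, and at 703.0, 419.8 and 186.4 RPKM in TSA(0-8 h) embryos. It was at 1782, 1854 and 448.1 RPKM in TSA+late VC embryos. TSA+late VC replicates 1 and 2 were thus above all Control embryos, and replicate 3 was below Control replicate 3. Sp110 was at 1531 and 352.4 RPKM with VC(8-15 h), 1679 and 393.4 RPKM with TSA+early VC, and 1303 RPKM in the VC(0-8 h) embryo. Replicate 2 of VC(8-15 h) and of TSA+early VC were also below Control replicate 3. Embryos with VC and no TSA were among the high ones.

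The sum hides 2 entries of unlike behaviour. The longer entry, NM_030194, has a length of 1913 bases by the steps of its values, and the shorter, NM_175397, only 208 bases. Each read thus adds more to the RPKM of the shorter entry than to that of the longer one. The longer entry was at 179.5, 18.7 and 108.5 RPKM in Control embryos, 698.2, 417.4 and 184.4 RPKM in TSA(0-8 h) embryos and 256.8, 584.8 and 344.7 RPKM in TSA+late VC embryos. All TSA-treated embryos of these groups thus exceeded the Control embryos, the lowest by little. The trait was not particular to TSA. The longer entry was also above all Control embryos with VC(8-15 h) (428.5 and 350.2 RPKM), TSA+early VC (1070 and 387.9 RPKM) and VC(0-8 h) (287.5 RPKM). Of the genes tested against Control embryos, with entries summed, 6.59% were higher in every TSA(0-8 h) embryo and 15.6% in every TSA+late VC embryo. The shorter entry split the 14 embryos into 7 at or above 103.4 RPKM and 7 at or below 7.09 RPKM. The high ones were Control replicate 3 (427.4 RPKM), VC(0-8 h) (1016 RPKM), VC(8-15 h) replicate 1 (1103 RPKM), TSA+early VC replicate 1 (608.6 RPKM) and the 3 TSA+late VC embryos (1525, 1269 and 103.4 RPKM). No TSA(0-8 h) embryo was among them, at 4.77, 2.46 and 2.05 RPKM. In read numbers, the shorter entry had 264 to 2262 reads in the high embryos and 3 to 15 in the low ones.

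**Figure D3:**
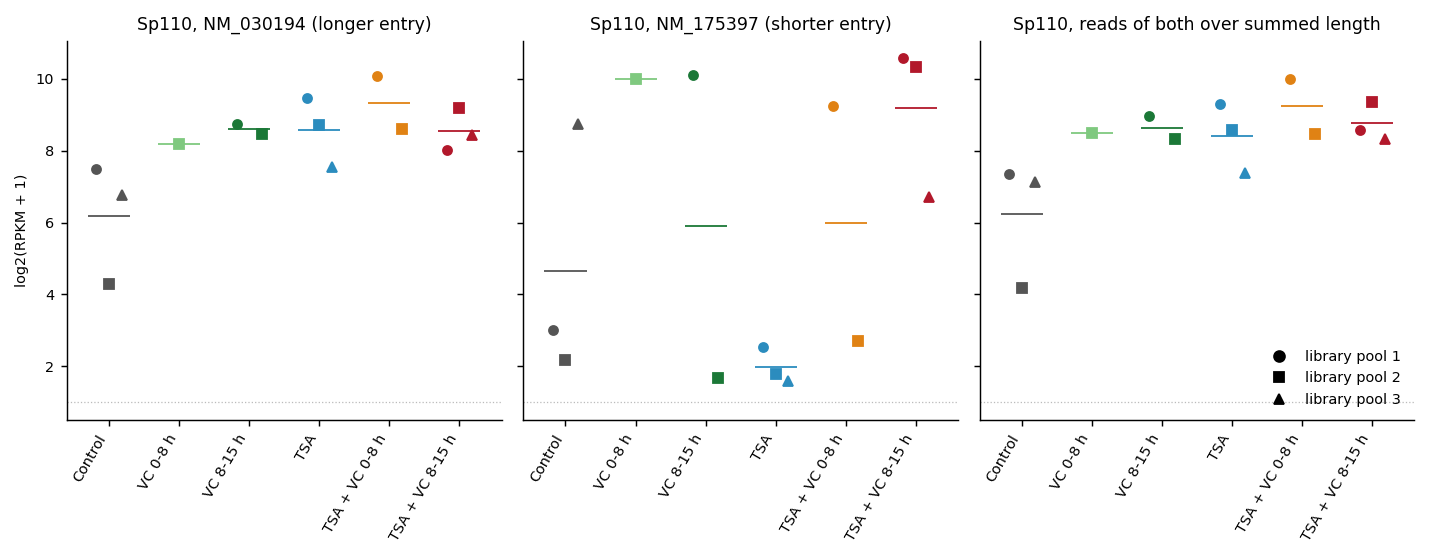
log2(RPKM + 1) of Sp110 in each embryo for the longer entry, the shorter entry, and the reads of both over their summed length of 2121 bases. Symbols are as in the plot of all members; the shorter entry splits into embryos at or above 103.4 RPKM and embryos at or below 7.09 RPKM, which the other values do not.

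The log2 difference of Sp110 from TSA(0-8 h) to TSA+late VC embryos was 1.58 for the sum, -0.02 for the longer entry and 7.22 for the shorter. With the reads of both over their summed length it was 0.34. The comparison of these treatments for Sp110 thus rests on the 208-base entry. Against Control embryos the longer entry gave 2.36 with TSA+late VC, 2.37 with TSA(0-8 h), 2.41 with VC(8-15 h) and 3.14 with TSA+early VC.

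Zfp352, a zinc finger gene known as a marker of the two-cell stage, was at 0.326, 2.83 and 124.5 RPKM in Control embryos. It was at 135.1, 154.9 and 225.2 RPKM in TSA(0-8 h) embryos, and at 39.9, 43.8 and 95.5 RPKM in TSA+late VC embryos. Zfp352 was the one member whose 3 TSA+late VC embryos all lay below the 3 TSA(0-8 h) embryos. It was at 111.8 and 1.55 RPKM with VC(8-15 h), 48.0 and 1.65 RPKM with TSA+early VC, and 155.5 RPKM with VC(0-8 h). The SD on the log2 scale was 0.38 in TSA(0-8 h) embryos and 3.43 in Control embryos.

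Spz1, a helix-loop-helix and leucine zipper factor first described in testis, was at 131.0, 0.273 and 37.0 RPKM in Control embryos and 0.413, 208.6 and 0.319 RPKM in TSA(0-8 h) embryos. It was at 163.9, 52.7 and 181.8 RPKM in TSA+late VC embryos. In both other groups of 3 at least 1 embryo lay under 0.5 RPKM, and no embryo with VC did, with or without TSA. With VC(8-15 h) it was at 27.5 and 64.5 RPKM, with TSA+early VC at 4.21 and 14.0 RPKM, and with VC(0-8 h) at 18.2 RPKM. Its SD within groups, 2.81 on the log2 scale, was the largest of the 7, and 81.7% of the 5032 genes had a smaller one.

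Ubtfl1, an HMG-box relative of the RNA polymerase I factor UBTF, was at or near 0 in the Control embryos, with 0, 6 and 4 reads (0, 0.331 and 0.112 RPKM). In TSA(0-8 h) embryos it was at 388.4, 22.2 and 1.58 RPKM, and in TSA+late VC embryos at 47.1, 26.3 and 196.5 RPKM. It was at 49.5 and 0.404 RPKM with VC(8-15 h), 0.813 and 49.4 RPKM with TSA+early VC, and 97.8 RPKM with VC(0-8 h). Every treated embryo thus lay above the Control embryos, the lowest by little. Of the genes tested against Control embryos, 6.59% were higher in every TSA(0-8 h) embryo and 15.6% in every TSA+late VC embryo. The shares were 17.1% with VC(8-15 h) and 22.6% with TSA+early VC. Ubtf itself, by contrast, was at 1.96 RPKM or more in every embryo, with a median of 47.3 RPKM.

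Usp17lb was high or near 0 in single embryos with little between. Control embryos had 0.393, 0.104 and 39.3 RPKM, and TSA(0-8 h) embryos 1.65, 0.0910 and 0.242 RPKM. TSA+late VC embryos had 164.4, 5.94 and 46.7 RPKM, all above the TSA(0-8 h) embryos. It reached 312.4 and 25.2 RPKM with TSA+early VC and 200.04 RPKM with VC(0-8 h), but 0.0721 and 0.433 RPKM with VC(8-15 h). Its neighbours were in part high in the same embryos. Usp17lc and Usp17ld were at 61.8 and 67.2 RPKM in TSA+early VC replicate 1, and at 79.8 and 120.7 RPKM with VC(0-8 h). In TSA+late VC replicate 1, all its neighbours were at 27.8 to 39.2 RPKM. Other embryos differed: Usp17lc was at 86.5 RPKM in TSA(0-8 h) replicate 2 and 75.9 RPKM in VC(8-15 h) replicate 1, where Usp17lb had 1 read each. In TSA+late VC replicate 3, Usp17lb was the only one of the 5 at 1 RPKM.

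Eif1a, an autosomal gene for the initiation factor eIF1A (chr18:46757358-46769879 in mm9, plus strand), was low in Control embryos, at 0.128, 0.202 and 0.179 RPKM, or 2, 4 and 7 reads. It was at 0.575, 0.0445 and 2.96 RPKM in TSA(0-8 h) embryos and at 74.0, 8.80 and 5.46 RPKM in TSA+late VC embryos, which lay above all embryos of both other groups. It was at 13.2 and 0 RPKM with VC(8-15 h), 0 and 7.74 RPKM with TSA+early VC, and 5.87 RPKM with VC(0-8 h). Eif1ax, its X-linked relative, was at 110.5 and 141.9 RPKM in Control embryos 1 and 2 and at 2.74 RPKM or less in the other 12 embryos.

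Gm8300 was at 4.73, 2.02 and 0 RPKM in Control embryos, 15.2, 4.17 and 0 RPKM in TSA(0-8 h) embryos and 89.8, 6.05 and 8.22 RPKM in TSA+late VC embryos. The last group lay above the Control embryos. The highest levels were those with VC(8-15 h), at 188.5 and 33.7 RPKM. With TSA+early VC it was at 0.655 and 24.4 RPKM and with VC(0-8 h) at 3.76 RPKM. Of its relatives, Gm4027 and BB287469 shared their highest embryo, at 31.0 and 33.5 RPKM in TSA+early VC replicate 2, with BB287469 summed over 2 loci. In that embryo, Gm4027 had 405 reads and the 2 BB287469 loci 405 and 407. They had 196, 196 and 195 reads in TSA+late VC replicate 3, but 1, 1 and 39 in Control replicate 3. The same reads may thus be counted at several of these loci, which was not tested. Gm5662 was highest in TSA(0-8 h) replicate 3, at 45.7 RPKM, an embryo in which Gm8300 had no read.

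**Figure D4:**
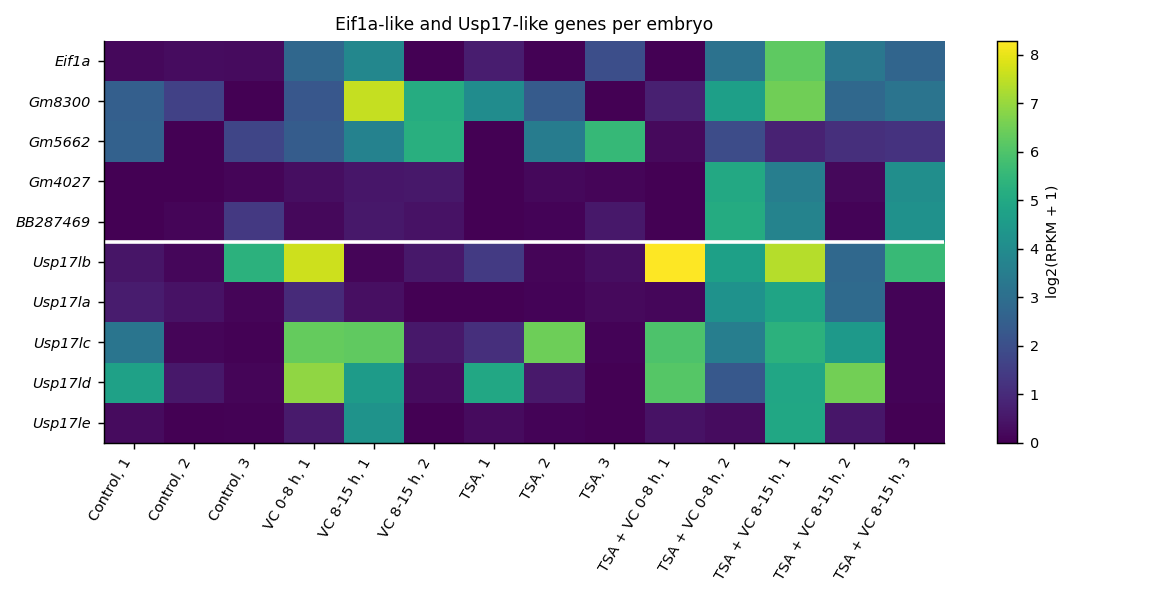
log2(RPKM + 1) of Eif1a-like genes (upper 5 rows) and Usp17-like genes (lower 5 rows) in each embryo, with darker cells for lower values and TSA + VC 8-15 h for TSA+late VC. Copies of one family were high together in some embryos, as Usp17lb and Usp17lc with VC(0-8 h) at 200.04 and 79.8 RPKM. In others they differed, as in TSA(0-8 h) replicate 2 at 0.0910 and 86.5 RPKM.

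Neither the order of treatments nor the spread was common to the 7 genes. The highest group mean on the log2 scale was that of VC(0-8 h), with 1 embryo, for Sp110, Ubtfl1 and Usp17lb, that of TSA+late VC for Spz1 and Eif1a, that of TSA(0-8 h) for Zfp352 and that of VC(8-15 h) for Gm8300. Of the 35 pairs of neighbouring treatments in these orders, 30 differed by no more than the larger SD of the pair, and 3 had ranges that did not overlap. The SD within groups was 1.57 for Sp110, 1.63 for Eif1a, 1.95 for Gm8300, 2.09 for Usp17lb, 2.46 for Zfp352 and 2.64 for Ubtfl1, beside a median of 2.23 over the 5032 genes. Across embryos, correlations between members on the log2 scale ranged from -0.18 (Zfp352 and Gm8300) to 0.59 (Eif1a and Gm8300), with a median of 0.35 over 21 pairs. Pairs share libraries and depth, and the most alike pair also shares sequence.

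The question of the main comparisons was whether the agents, alone or in sequence, move transcription in cloned embryos. Among the 7 genes, TSA+late VC and Control embryos differed most in Ubtfl1, by 5.81 ± 1.56 (SE, n = 3 and 3) in log2(RPKM + 1), with a limma adjusted p = 0.112. The difference was 3.85 ± 1.19 in Eif1a and 3.10 ± 0.94 in Sp110, each with the same limma adjusted p of 0.112. It was 3.26 in Usp17lb, 2.80 in Gm8300, 2.70 in Zfp352 and 2.66 in Spz1, with limma adjusted p-values from 0.365 to 0.472. No member passed the adjusted threshold of 0.05, and neither did any of the 3323 genes tested (0%), although 462 were higher and 125 lower at an unadjusted p under 0.05, and limma-voom on recovered reads called 321. Ubtfl1, Eif1a and Gm8300 were higher in every TSA+late VC embryo, as 15.6% of the genes tested were, and no member was lower in every embryo, as 5.72% were. At an unadjusted p under 0.05, 3 of the 7 were higher and 0 lower, beside 13.9% and 3.76% of the genes tested. All 7 passed the filter of 1 RPKM through the treated embryos, and Sp110 alone would have passed it through the Control embryos. The log2 difference over all genes tested had a median of 0.78, beside a median of 3.10 over the 7 genes. Median-ratio scaling, which takes this shift away, left 5.09 in Ubtfl1, 3.24 in Eif1a and 2.31 in Sp110. Without Control replicate 2, the median over all genes was -0.03 (0.65 to 1.10 without another embryo). The difference was then 5.92 in Ubtfl1, 3.87 in Eif1a, 2.92 in Gm8300, 2.34 in Usp17lb, 2.12 in Zfp352, 1.85 in Sp110 and 0.73 in Spz1. Within pools of libraries, Ubtfl1 differed by 5.59, 4.36 and 7.47 and Eif1a by 6.05, 3.03 and 2.45, while Sp110 differed by 3.25, 6.32 and -0.26. Two-sided exact permutation tests of single genes could not go below p = 0.1 with 3 embryos a group, which Ubtfl1, Eif1a and Gm8300 reached.

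**Figure D5:**
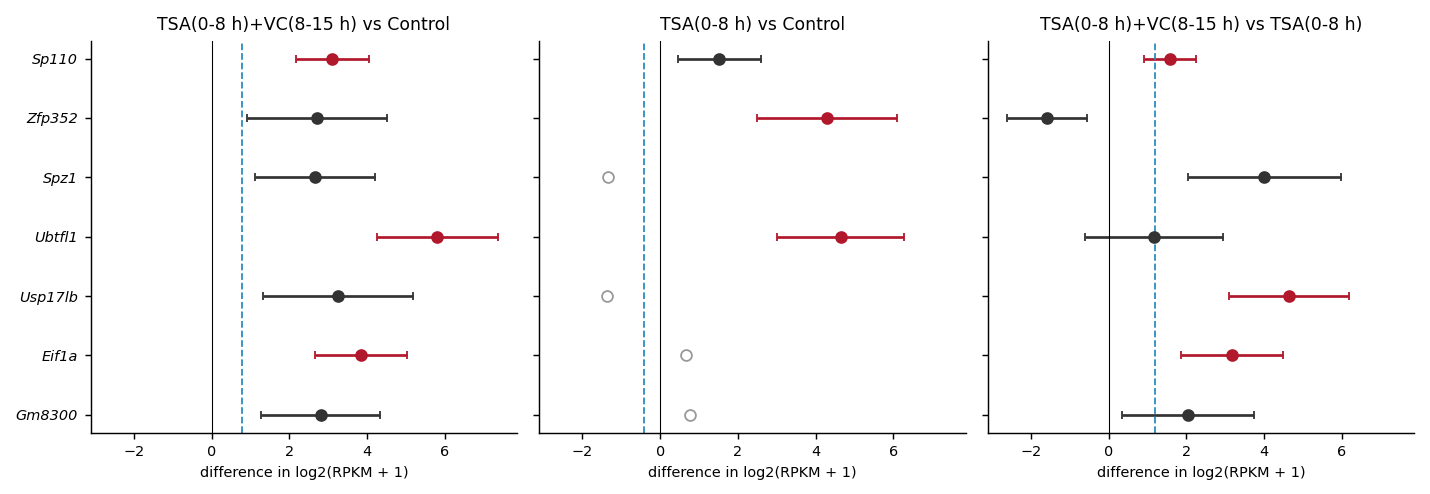
Differences in log2(RPKM + 1) of the 7 genes in the comparisons of groups of 3 embryos, with standard errors from limma. Red marks an unadjusted p under 0.05, open circles are genes under the filter, which were not tested, and the dashed line is the median of all genes tested; Zfp352 lies left of 0 in the right panel, at -1.59.

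Between TSA(0-8 h) and Control embryos, 3 of the 7 genes could be tested. Ubtfl1 differed by 4.65 ± 1.63 (SE, n = 3 and 3; limma adjusted p = 0.153) and Zfp352 by 4.29 ± 1.80 (limma adjusted p = 0.239), both higher in every embryo, as 6.59% of the 2490 genes tested were, while 11.8% were lower in every embryo. Sp110 differed by 1.52 ± 1.06 (limma adjusted p = 0.548). Over all genes tested the median difference was -0.40, and no gene was called (0%), while 136 (5.46%) were higher and 235 (9.44%) lower at an unadjusted p under 0.05, and limma-voom called 8. Of the 3 members tested, 2 were higher at that level. Ubtfl1 and Zfp352 passed the filter through the TSA(0-8 h) embryos alone, and members lower in those embryos did not pass it, so this count says nothing of direction. The other 4 genes differed by -1.34 (Spz1), -1.37 (Usp17lb), 0.67 (Eif1a) and 0.76 (Gm8300), with no test.

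Late VC after TSA was compared with TSA alone in TSA+late VC and TSA(0-8 h) embryos. These groups, and Control, enter several comparisons, so the comparisons are not independent of each other. Usp17lb was higher by 4.63 ± 1.54 (SE, n = 3 and 3; limma adjusted p = 0.109) and Eif1a by 3.17 ± 1.30 (limma adjusted p = 0.199), both in every embryo, as 18.2% of the 3140 genes tested were. Zfp352 was lower by -1.59 ± 1.03 (limma adjusted p = 0.465) in every embryo, as 3.44% of the genes were, and by -1.73, -1.80 and -1.23 within the 3 pools. The median over all genes tested was 1.20, and with median-ratio scaling Zfp352 differed by -2.89 and Usp17lb by 3.76. Spz1 differed by 4.01 and Gm8300 by 2.05, with overlap. Ubtfl1 differed by 1.16 ± 1.77, which turned to -0.12 with median-ratio scaling. No gene was called (0%), while 505 (16.1%) were higher and 68 (2.17%) lower at an unadjusted p under 0.05, and limma-voom called 286. Of the 7 members, 3 were higher at that level (Sp110, Usp17lb and Eif1a) and 0 lower, but Sp110 differed by 0.26 with median-ratio scaling (limma adjusted p = 0.925) and by 0.34 with its reads over the summed length (limma adjusted p = 0.846). Spz1, Usp17lb, Eif1a and Gm8300 passed the filter through the TSA+late VC embryos alone.

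In the smaller groups, Gm8300 was higher with VC(8-15 h) than in Control embryos by 4.97 ± 2.28 (SE, n = 2 and 3; limma adjusted p = 0.328), in both embryos, as 17.1% of 3080 genes were, while 10.8% were lower in both. No gene was called there (0%), with 285 (9.25%) higher and 136 (4.42%) lower at an unadjusted p under 0.05, and 121 called by limma-voom. Of the 4 members tested, Gm8300 and Sp110 were higher at that level, Sp110 by 2.47. Zfp352, Spz1 and Gm8300 passed the filter through the VC(8-15 h) embryos alone. Ubtfl1, under the filter, was higher in both VC(8-15 h) embryos, with no test, in replicate 2 with 7 reads (0.404 RPKM). With TSA+early VC, Usp17lb was higher than in Control embryos by 4.52 ± 2.38 (n = 2 and 3; limma adjusted p = 0.405). Usp17lb, Zfp352 and Spz1 passed the filter through the TSA+early VC embryos alone. No gene was called there either (0%), with 544 (14.1%) higher and 90 (2.33%) lower at an unadjusted p under 0.05, and 281 called by limma-voom. Of the 4 members tested, 0 were at that level and 0 differed without overlap, beside 22.6% of 3859 genes that were higher and 7.64% that were lower in both embryos. Ubtfl1, under the filter, was also higher in both TSA+early VC embryos, with no test. In replicate 1 this rests on 7 reads (0.813 RPKM), beside 6 reads (0.331 RPKM) in Control replicate 2.

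Over all 14 embryos, with TSA and VC as terms of 1 model, the difference with VC was 1.99 ± 0.54 in Sp110 (SE; limma adjusted p = 0.156), the lowest p-value of the 7. It was 3.20 ± 1.43 in Usp17lb (limma adjusted p = 0.424), the largest difference of the 7. The VC term pools both windows, in which Usp17lb differed when VC was given alone. It was at 200.04 RPKM with VC(0-8 h) but at 0.0721 and 0.433 RPKM with VC(8-15 h). The log2 difference of VC(8-15 h) from Control embryos was -1.67, with no test. The 8 embryos with VC had a mean of 1168 RPKM of Sp110 and the 6 without a mean of 342.3 RPKM. With the reads of both Sp110 entries over their summed length, the difference was 1.34, and with median-ratio scaling 1.27. Of the 5032 genes tested, 1 was called for VC (0.0199%) and none for TSA (0%), where limma-voom called 2. At an unadjusted p under 0.05, 8.92% were higher and 1.23% lower with VC, beside 2 and 0 of the 7 members, and with TSA 159 (3.16%) were higher and 138 (2.74%) lower, beside 0 of the 7 members. With TSA the largest difference of a member was that of Ubtfl1, 2.42 ± 1.39 (limma adjusted p = 0.920).

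Of a list of 55 other genes drawn up for two-cell activation, 42 were in the tables. The list holds relatives of members, such as Usp17lc and Gm5662. It also holds genes high in every embryo, such as Zbed3 at 309.4 to 3072 RPKM. Maternal and embryonic RNA of these genes were not told apart. No gene of the list was called in the 5 comparisons of pairs of groups. In the comparison of TSA+late VC with Control embryos, 14 could be tested, 5 were higher and 1 lower at an unadjusted p under 0.05, beside 13.9% and 3.76% of all genes tested. Their median log2 difference was 2.24, beside 0.78 over all genes. With TSA(0-8 h), 9 were tested against Control embryos, 1 was higher and 1 lower, beside 5.46% and 9.44%, and the median was -0.38, beside -0.40. From TSA(0-8 h) to TSA+late VC embryos, 15 were tested, 2 were higher and 0 lower, beside 16.1% and 2.17%, and the median was 1.00, beside 1.20. With VC(8-15 h), 14 were tested against Control embryos, 4 were higher and 2 lower, beside 9.25% and 4.42%, and the median was 1.72, beside 0.39. With TSA+early VC, 15 were tested against Control embryos, 5 were higher and 0 lower, beside 14.1% and 2.33%, and the median was 2.39, beside 0.99. Genes of the list can likewise pass the filter through the group where they are high.

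For each member, the genes with the most similar pattern over the 14 embryos were sought by Pearson's correlation of log2(RPKM + 1) among 5729 genes. For Sp110 they were C130026I21Rik, a relative on chromosome 1 (r = 0.87), and Syncrip (r = 0.87), for Zfp352 Pdia3 (r = 0.85) and Wrn (r = 0.84), and for Spz1 Hspd1 (r = 0.86) and Abt1 (r = 0.81). For Ubtfl1 they were Gm12789 (r = 0.89) and Ficd (r = 0.87), for Usp17lb Recql5 (r = 0.89) and Gtf2e1 (r = 0.88), for Eif1a Rpl9 (r = 0.89) and Lias (r = 0.88), and for Gm8300 Aurkc (r = 0.83) and Slc4a7 (r = 0.82). Each pair of genes has the highest and the second highest of 5729 correlations over 14 libraries, and C130026I21Rik shares 15 of the 1872 windows of 50 bases of Sp110.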

How the data were processed

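Each of the 14 embryos gave 1 amplified cDNA library, read from one end on a HiSeq2000. After quality filtering and trimming, the authors used TopHat (TopHat2 in the submitters' processing notes) with mm9, counted exon reads of UCSC transcripts and deposited RPKM values, scaled by total counts and by length. Treatments and replicate numbers come from the sample labels. A pool of libraries is a set of embryos with the same library identifier, and what that identifier stands for is not stated. The labels do not say which embryos came from the same nuclear transfer experiment (those of TSA+late VC came from separate ones, by the study), so p-values measure the spread between these embryos.

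Of 25650 entries in each table, 25250 were given a gene symbol through RefSeq accessions, and RPKM values of entries with 1 symbol were summed. RPKM values are whole multiples of 1 read, and 14531 of 14532 entries with reads gave whole reads within a relative tolerance of 1e-09, which recovered 99.7% to 99.96% of the reads of each library.

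Members and lists were chosen with earlier results of these data known. The text names the 7 members with every entry, their relatives by level, and for each member the 2 most similar genes. Genes that reached 1 RPKM in each embryo of 1 of the groups compared (for the model of 14 embryos, in at least 6) were tested on log2(RPKM + 1), with a pseudocount of 1, with limma 3.58.1 in R 4.3.3 (lmFit and eBayes with a trend) and Benjamini-Hochberg adjustment at 0.05. Simulated tables with 200 changed genes served as a check of the fit. Differences on this scale understate changes of low genes. The authors tested counts with edgeR, which was not repeated here. Single members were compared by two-sided exact permutation tests. Alternatives were a pseudocount of 0.1, no filter, a minimum of 5 RPKM, median-ratio scaling, the replicate number or pool as a block, single entries and leaving out each embryo. Added after seeing the data were limma-voom on recovered reads, Sp110 reads over the summed length and a model without the VC(0-8 h) embryo. Promoter windows are those of RefSeq (GRCm38.p6); transcripts and the genome are mm9 (GENCODE vM1). Python 3.11.15 with Biopython 1.88 was used for sequences.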

Additional observations from a re-analysis of the deposited data

Results flagged for a closer look

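Groups of 4 to 10 embryos were examined for an embryo far from the others on the log2(RPKM + 1) scale, by the gap to its nearest neighbour over the range (Dixon's 95% critical values). Over 28 such tests of the 7 genes, chance gives about 1 in 20. Among the 8 embryos with any TSA, Zfp352 was far below the others in TSA+early VC replicate 2, at 1.65 RPKM. Among the 6 embryos with no VC, Usp17lb was far above the others in Control replicate 3, at 39.3 RPKM. Among the same 6 embryos, Eif1a was far above the others in TSA(0-8 h) replicate 3, at 2.96 RPKM.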

How the results depend on the processing

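Of 438 recomputed member differences, 417 kept their direction and side of the adjusted threshold, 8 passed it where the reported value did not, and 13 turned sign, 8 of them with an embryo left out. The cause was not tested in any of these cases.

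No gene was called in any reported comparison, except 1 for VC over all embryos. Between TSA+late VC and Control embryos, 107 genes were called with a pseudocount of 0.1, 184 with a minimum of 5 RPKM, 1 with each entry on its own, 321 by limma-voom and 0 to 72 with an embryo left out (72 without Control replicate 2). Of these, 85 of the 107 and 250 of the 321 were higher, but only 7 of the 72, with 65 lower. Between TSA(0-8 h) and Control embryos these counts were 100, 107, 3, 8 and 0 to 276 (276 without Control replicate 2, 4 higher and 272 lower). Between TSA+late VC and TSA(0-8 h) embryos, 172 were called with a pseudocount of 0.1, 214 with a minimum of 5 RPKM, 286 by limma-voom and 0 to 298 with an embryo left out (203, 298 and 282 without TSA+late VC replicates 1, 2 and 3). Between VC(8-15 h) and Control embryos the counts were 45, 149, 121 and 0 to 1199. Between TSA+early VC and Control embryos they were 233, 276, 281 and 0 to 1343, with 156 under median-ratio scaling. For TSA over all embryos, 1 was called with a pseudocount of 0.1, 2 with each entry on its own and 2 by limma-voom. For VC, 2 were called with a pseudocount of 0.1, 4 without the filter, 0 with a minimum of 5 RPKM, 0 with median-ratio scaling, 0 with the pool as a block, 2 with each entry on its own and 3 by limma-voom.

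In the comparisons of pairs of groups, embryos with the same replicate number were also of the same pool. They deviated together little (correlations of -0.0014 to 0.0819). Correlations of embryos with unlike numbers were not computed, so whether the numbers or pools pair embryos was not settled. With the replicate number as a block, 7 genes were called between TSA+late VC and Control embryos (1 member, Sp110), 5 between TSA(0-8 h) and Control embryos, 153 between TSA+late VC and TSA(0-8 h) embryos and 1 between VC(8-15 h) and Control embryos.

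Between TSA+late VC and Control embryos, Ubtfl1 was the 1 member called with a pseudocount of 0.1 and by limma-voom, and Ubtfl1 and Eif1a were the 2 called with a minimum of 5 RPKM. Between TSA(0-8 h) and Control embryos, Ubtfl1 was the 1 called with a pseudocount of 0.1. Between TSA+late VC and TSA(0-8 h) embryos, Usp17lb was the 1 called with a minimum of 5 RPKM and by limma-voom. With an embryo left out, 0 to 2 members were called between VC(8-15 h) and Control embryos (Ubtfl1 and Eif1a without VC(8-15 h) replicate 2) and 0 to 2 between TSA+early VC and Control embryos (Ubtfl1 and Eif1a without TSA+early VC replicate 1). There, the lone embryo left is assumed to vary like the other group.

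The shorter Sp110 entry turned the sign of the difference between TSA(0-8 h) and Control embryos to -2.67 and that with TSA over all embryos to -0.82, and the longer one that between TSA+late VC and TSA(0-8 h) embryos to -0.018. In the last comparison Ubtfl1 turned to -0.12 with median-ratio scaling and to -0.58 without TSA(0-8 h) replicate 3, with up to 3.04 without another embryo. Between VC(8-15 h) and Control embryos, Zfp352 turned to -0.37 without Control replicate 1 and -1.76 without VC(8-15 h) replicate 1 (up to 3.71 otherwise), and Spz1 to -0.71 without Control replicate 2 (up to 2.64 otherwise). Between TSA+early VC and Control embryos, Zfp352 turned to -0.94 without Control replicate 1, -0.18 without Control replicate 2 and -1.70 without TSA+early VC replicate 1 (up to 2.51 otherwise), and Spz1 to 0.35 without Control replicate 1 (down to -3.002 otherwise). With the pool as a block, Zfp352 turned to 0.11 for VC over all embryos. With 1 to 3 embryos a group and levels near 0 in some embryos, differences of 1 log2 unit were within the spread for every member.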
